A study of Mus musculus and synthetic construct with 32 samples.

Results

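Macrophages are the most abundant immune cells of the developing gonad, and 10 genes that mark them, or leukocytes more widely, were followed through the total RNA and m6A data of gonads from Ythdc2 knockout mice. The genes were Adgre1, Csf1r, Mrc1, C1qa, C1qb, C1qc, Cd68, Lyz2, Ptprc and Cd52, taken by name. They are 10 of the 22750 genes with a sense-exon entry in any of the 4 tables used. All 10 had entries for exons and introns in each of these tables. The choice used no measured value, although it was made with earlier results of the same data known.

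Ythdc2 encodes an RNA helicase whose YTH domain binds N6-methyladenosine (m6A), and it acts in germ cells as they enter meiosis. Mice were of the C57BL/6J strain. Testes at postnatal day 12 (P12) were compared between 3 knockout libraries (YTHDC2 -/-) and 3 heterozygous ones (YTHDC2 +/-), and ovaries on the day of birth (P0) between 2 knockout and 2 heterozygous libraries. Testes at P8 came as 2 knockout libraries, 1 heterozygous library and 1 wild-type library (YTHDC2 +/+). For m6A, 1 immunoprecipitate and 1 input library of wild-type testis at P8 were used, out of 10 m6A libraries among 32 in all. The heterozygous controls at P12 and P0 carry a mutant allele too. The mutation was made in 2 lines, one lacking a single exon and one with stop codons inserted in it, and the line of each library is not stated in the labels. Nothing in the labels says that libraries of a group came from separate animals, so the adjusted p-values may measure technical spread only.

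The values were the authors' own comparisons, each with a mean normalized count over all libraries of a table, a log2 fold change and an adjusted p-value from DESeq2. No value per library was used, so no SD is given and individual libraries cannot be set against each other. Summed over all features, the mean normalized counts came to 23754190 in ovary, 42229589 at P8, 37066681 at P12 and 24879917 in the m6A table. Exons of Ythdc2 itself fell by 1.29 on the log2 scale at P12 (adjusted p = 9.87e-25) by the authors' deposited table, and had folds of -0.43 in ovary (adjusted p = 0.584) and -0.50 against wild type at P8 (adjusted p = 1). A count over the whole gene does not check a lesion within one exon. The heterozygous library at P8 stood apart by transcripts of spermatids, a cell type not yet formed at that age. The protamine gene Prm2 was 0.74 higher there than in the wild-type library on the authors' log2 scale, and Tnp1, a transition protein gene, was 0.35 higher, in the authors' deposited table. Knockout folds of Prm2 and Tnp1 were -1.03 and -0.47 against the heterozygote, and -0.29 and -0.12 against the wild type. For both genes the wild type thus also lay above the knockouts, though by less. The wild type was therefore taken as the P8 control, and values against the heterozygote are given beside it.

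Macrophages of the gonad take up dying cells and debris, and in the testis they lie in the interstitium near the steroid-producing Leydig cells and around the tubules. Their growth and survival depend on colony-stimulating factor 1 acting through its receptor CSF1R. They make the C1q protein that starts the classical complement pathway and marks debris and dying cells for removal. Fetal gonads are seeded by macrophages from early embryonic sources, and monocytes add to them around and after birth.

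No change in the surface receptors of macrophages was detected in knockout testis or ovary. Adgre1 encodes F4/80, the classical surface antigen of mouse macrophages. Its exons, with a mean count of 343 at P12, had a log2 fold of 0.05 between knockout and heterozygote (adjusted p = 0.994) by the authors' deposited table. In ovary the authors' deposited table gave Adgre1 a fold of 0.01, and at P8 folds of 0.10 against wild type and 0.11 against the heterozygote. Csf1r encodes the receptor for CSF1 and interleukin 34, on which most tissue macrophages depend. The authors' deposited table gave Csf1r folds of 0.05 at P12 (mean count 917), -0.02 in ovary (mean count 716), 0.04 against wild type at P8 and 0.14 against the heterozygote there. Mrc1 encodes the mannose receptor CD206, an uptake receptor of resident macrophages that some endothelial cells also carry. Mrc1 had folds of 0.02 at P12 (mean count 1781), 0.14 in ovary (mean count 1135), -0.02 against wild type at P8 and 0.04 against the heterozygote in the authors' deposited table. None of these values passed an adjusted p of 0.05. In whole gonads, fewer cells of a type and less RNA per cell cannot be told apart, and shares of cell types were not measured here.

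The receptor genes lie on different chromosomes of the GRCm38 build, on which the submitters' mm10 processing also rests. Adgre1 spans bases 57358581 to 57483529 of chromosome 17, Csf1r 61105572 to 61131139 of chromosome 18, and Mrc1 14229414 to 14332023 of chromosome 2. The RefSeq annotation places 2 other genes within or across Adgre1, 2 across Csf1r and 1 across Mrc1, and whether reads were shared with them is not given in the sources used here.

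**Figure D1:**
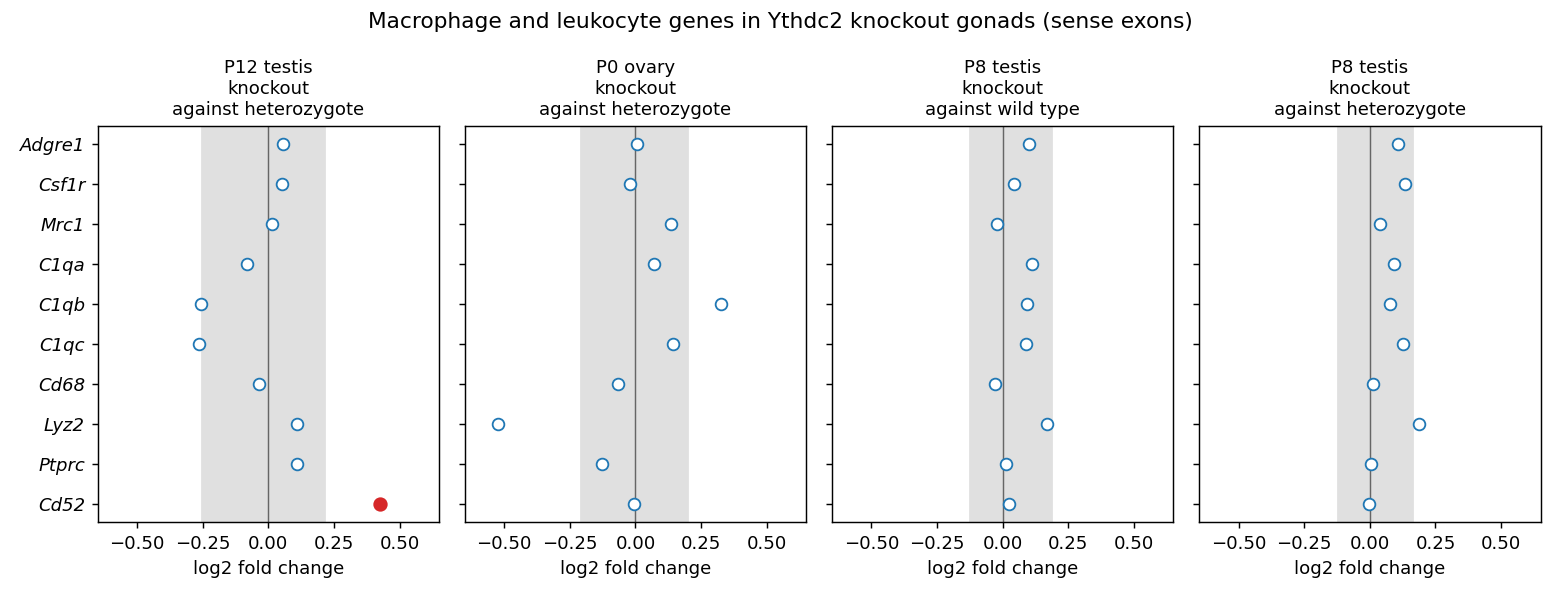
Log2 fold changes of the 10 genes (sense exons) between knockout and control in the authors' deposited tables, on the x axis, in 4 panels, with genes on the y axis. Open points had an adjusted p of 0.05 or above, the filled red point (Cd52 at P12, 0.42) lay below it, and grey bands span the 5th to the 95th percentile of all genes with a mean count of at least 10.

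Of the 10 genes, 1 passed the threshold at P12 and none passed in ovary or at P8. At P12 the gene that passed was higher in the knockout, and the background was 0.881% of 15558 tested genes called in either direction and 0.0964% called higher in the authors' deposited table. In ovary 0 of 10 were called, against a background of 0.548%. At P8 0 of 10 were called against the wild type and 0 of 10 against the heterozygote, where the backgrounds were 0.0449% and 0.0577%. At these background shares fewer than 1 of 10 genes would be called on average, so the counts of 0 are near the background. The tables hold DESeq2's adjusted p-values only, and counts at an unadjusted p cannot be given.

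Cd52 was the gene that rose. It encodes a short glycoprotein anchored to the surface of lymphocytes, monocytes and dendritic cells, and in mammals the epithelium of the male reproductive tract also makes it. At P12 its exons, with a mean count of 195, were higher in the knockout by 0.42 on the log2 scale (adjusted p = 0.0273) by the authors' deposited table. That fold ranked 37 from the highest among 15608 genes at or above a mean count of 10, and 99.8% of them lay below it. In ovary, where its mean count was 19.8, the authors' deposited table gave a Cd52 fold of -0.01. At P8, with a mean count of 30.6, its fold was 0.02 against wild type and -0.003 against the heterozygote in the authors' deposited table. The difference between the ages was not tested, since the tables hold no values per library.

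Cd52 is a compact gene at bases 134093538 to 134095073 of chromosome 4. Crybg2, listed under its older symbol Aim1l, lies 1033 bases away and had a fold of 0.02 at P12 in the authors' deposited table. On the other side Ubxn11, 7426 bases away, had a fold of -0.13 (adjusted p = 0.991) by the authors' deposited table. Introns of Cd52 had a mean count of only 3.79 at P12 and a fold of 0.18 in the authors' deposited table, which gives no adjusted p for them.

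Markers of 2 other cell types held a call beside Cd52 in the P12 testis. Of 6 Leydig cell markers, 5 reached a mean count of 10, all 5 had folds above 0 with a median of 0.18, and Cyp17a1, which encodes a steroid hydroxylase of androgen synthesis, was called higher at 0.76 (adjusted p = 0.000122) by the authors' deposited table. The summed level of the 6 Leydig markers was 526 counts per 1000000 sense-exon counts (CPM) at P12 and 441 CPM at P8, in means over all genotypes of a table. All 6 endothelial markers had folds above 0 at P12, with a median of 0.18 and no call in the authors' deposited table. Among the 6 germ cell markers 5 lay below 0, and Sycp3, which encodes a protein of the meiotic chromosome axis, was called lower at -0.66 (adjusted p = 0.00407) by the authors' deposited table. The part of these cell types in the Cd52 value was not tested.

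C1qa, C1qb and C1qc encode the 3 chains that together form C1q. The genes lie side by side within bases 136880126 to 136898844 of chromosome 4, in the order C1qb, C1qc, C1qa. At P12 C1qb and C1qc had the lowest folds among the 10 genes, both -0.26, with adjusted p-values of 0.725 and 0.666 in the authors' deposited table. C1qa had a fold of -0.08 there (adjusted p = 0.994) by the authors' deposited table. In ovary all 3 chains lay above 0 in the authors' deposited table, at 0.07 for C1qa, 0.33 for C1qb and 0.14 for C1qc, and each adjusted p rounded to 1.00. At P8 they ranged from 0.09 to 0.11 against wild type and from 0.08 to 0.13 against the heterozygote in the authors' deposited table. The chains thus had folds on opposite sides of 0 in P12 testis and P0 ovary, and no difference passed the test in either organ. Their mean normalized counts were 532, 402 and 435 at P12 for C1qa, C1qb and C1qc, and 330, 309 and 310 in ovary. These means were normalized separately for each organ and age and are not on one scale. In CPM the same genes stood at 28.1, 21.2 and 23.0 at P12, and at 41.4, 38.7 and 38.9 in ovary.

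Lyz2 encodes the M form of lysozyme, a bacteria-degrading enzyme of macrophages, monocytes and neutrophils. The authors' deposited table gave it the lowest ovary fold of the 10 genes, -0.52 at an adjusted p of 0.207 and a mean count of 317. It ranked 72 from the lowest among the 14606 genes at or above a mean count of 10 in ovary. In testis the Lyz2 folds were 0.11 at P12, 0.17 at P8 against wild type and 0.19 against the heterozygote in the authors' deposited table, and none passed. Its neighbour and close paralog Lyz1 lies 5522 bases away and had mean counts of 1.01 in ovary, 2.50 at P8 and 4.92 at P12. How reads common to both genes were counted is not given in the sources used here, so the split between them is uncertain.

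Cd68 encodes a glycoprotein of lysosomes and endosomes that macrophages carry in large amounts. Its folds were -0.03 at P12 (mean count 132), -0.07 in ovary (mean count 82.5), -0.03 against wild type at P8 and 0.01 against the heterozygote in the authors' deposited table. Ptprc encodes CD45, the tyrosine phosphatase found on all leukocytes. The authors' deposited table gave Ptprc folds of 0.11 at P12 (mean count 104), -0.13 in ovary (mean count 95.6), 0.01 against wild type at P8 and near 0 against the heterozygote. No value of either gene passed the threshold. Cd68 occupies bases 69664213 to 69666170 of chromosome 11, Ptprc 138062859 to 138175756 of chromosome 1 and Lyz2 117277541 to 117282272 of chromosome 10.

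As a group the 10 genes had a median log2 fold of 0.03 at P12, with 6 above 0, beside a median of 0.01 over all genes, of which 52.1% lay above 0. In ovary 5 of the 10 lay above 0 and 5 below, and their median was near 0. At P8 8 of 10 lay above 0 against the wild type, with a median of 0.06, and 9 of 10 against the heterozygote, with a median of 0.09. These P8 comparisons share the same 2 knockout libraries. In the heterozygote against the wild type, 1 library each, every adjusted p of the 10 was 1 and 4 of 10 lay above 0, with a median of -0.01 and a range from -0.09 to 0.03 in the authors' deposited table. Lyz2 had the highest P8 fold of the 10 against both controls.

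Windows of 250 bases before the transcription start were available for 6 of the 10 genes, from RefSeq on the GRCm38.p6 build. They are shown for C1qb, C1qc and Lyz2, which with Cd52 had the largest exon folds between knockout and control among the 10, in either direction. Each reads 5′ to 3′ on the gene's own strand, the minus strand for all 3, and ends at the base before the start. Capitals mark GGAAGT or its reverse complement ACTTCC, letters found in many sites of the ETS family, to which the macrophage regulator PU.1 belongs. The windows lie at chr4:136886201-136886450 for C1qb, chr4:136892915-136893164 for C1qc and chr10:117282273-117282522 for Lyz2.
C1qb: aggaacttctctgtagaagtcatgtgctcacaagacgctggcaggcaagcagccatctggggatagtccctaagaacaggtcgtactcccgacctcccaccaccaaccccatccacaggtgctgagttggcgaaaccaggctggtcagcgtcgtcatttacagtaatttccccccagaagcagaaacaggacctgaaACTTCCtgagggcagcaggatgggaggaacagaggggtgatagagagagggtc
C1qc: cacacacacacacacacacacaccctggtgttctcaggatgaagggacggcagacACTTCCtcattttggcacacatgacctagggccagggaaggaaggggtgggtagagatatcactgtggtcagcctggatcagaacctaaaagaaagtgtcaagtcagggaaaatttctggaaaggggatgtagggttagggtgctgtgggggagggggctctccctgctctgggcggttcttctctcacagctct
Lyz2: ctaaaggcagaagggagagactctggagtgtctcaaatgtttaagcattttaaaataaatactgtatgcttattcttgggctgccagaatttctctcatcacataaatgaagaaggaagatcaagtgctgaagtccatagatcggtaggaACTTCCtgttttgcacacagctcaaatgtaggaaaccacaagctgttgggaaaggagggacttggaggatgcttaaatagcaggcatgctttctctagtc

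The match began 53 bases before the start in C1qb, 195 bases before it in C1qc and 100 bases before it in Lyz2. In all, 6 of 7 windows held GGAAGT on either strand, from 5 of 6 genes (Mrc1 and Ptprc besides the 3 shown), beside 19.7% of 32851 windows of all genes. Both Ptprc windows overlap and share a match, so they are not separate observations. Of the other strings searched, GAGGAA was in 5 of 7 windows beside 23.3% of all, GAGGAAG in 2 beside 10.6%, AGAGGAAG in 1 beside 3.67%, GAGGAAGT in 1 beside 2.44%, and AGAGGAAGT in 0 beside 0.798%. These 6 strings were chosen with the folds already seen, they overlap one another, and a match describes letters only, not binding.

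Introns gave a second reading from the same libraries, closer to unspliced RNA. At P12 6 of the 10 genes reached a mean intron count of 10, none was called beside a background of 1.02%, and their median fold was 0.13 in the authors' deposited table. In ovary 6 reached that count and none was called, beside 0.279%. At P8 7 reached it and none was called against the wild type, beside 0.0141%. Intron and exon folds of a gene did not always share a sign. C1qb introns had folds of -0.01 at P12 and -0.05 in ovary in the authors' deposited table, where its exon folds were -0.26 and 0.33. Csf1r introns were at -0.24 and Ptprc introns at -0.27 in ovary in the authors' deposited table, both lower than their exon folds of -0.02 and -0.13. Mrc1 introns were at -0.07 at P12 and 0.21 in ovary in the authors' deposited table.

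**Figure D2:**
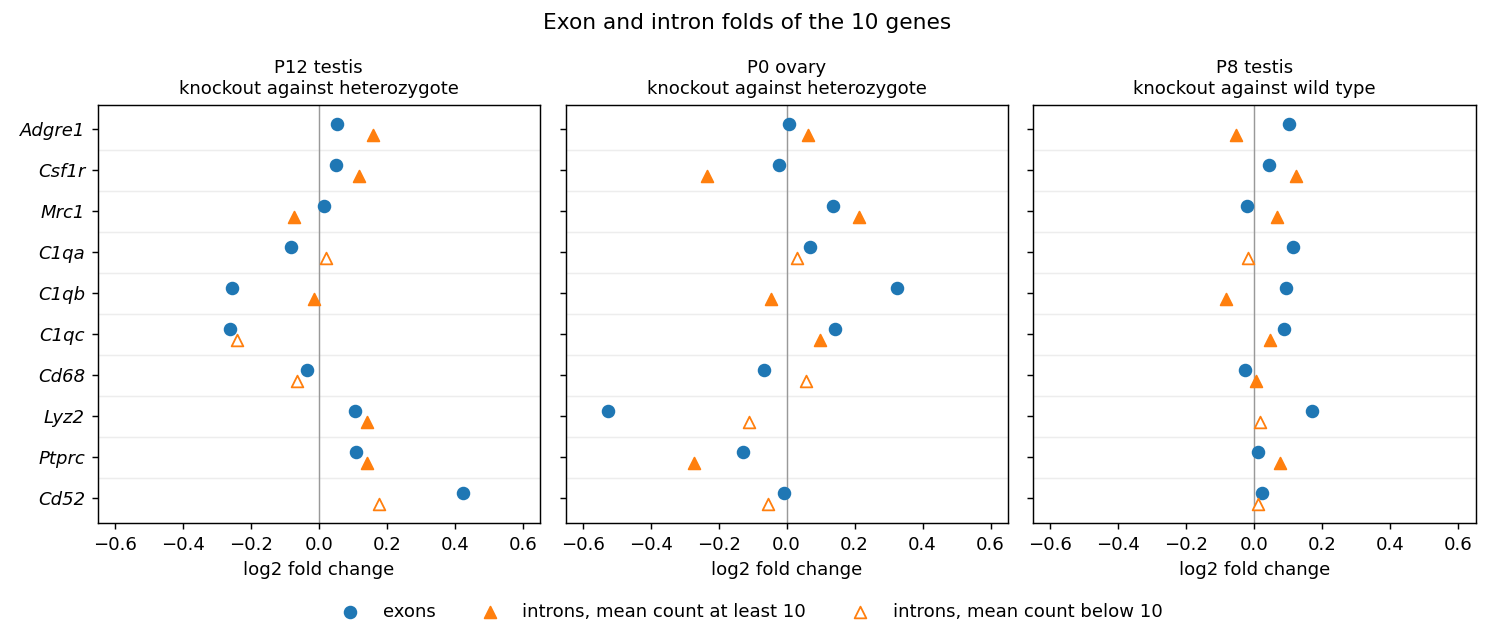
Log2 fold changes of exons (blue circles) and introns (orange triangles) of the 10 genes, on the x axis, for P12 testis, P0 ovary and P8 testis in the authors' deposited tables. Open triangles are introns with a mean count below 10, and C1qb, Csf1r and Ptprc in ovary show the spacing between exon and intron folds described in the text.

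The balance of exon to intron counts differed between genes and ages. For Ptprc the ratio of mean exon to mean intron count was 0.572 in ovary, 0.751 at P8 and 1.20 at P12. Csf1r stood at 6.12, 7.61 and 18.9 in the same order, and Mrc1 at 1.95, 2.51 and 3.58. All 10 genes had a higher ratio at P12 than at P8. Some of these ratios rested on mean intron counts below 10, such as 1.45 at P8 and 3.79 at P12 for Cd52. The share of all counts in sense exons also differed between the tables, at 33.6% in ovary, 44.6% at P8 and 51.1% at P12, and its part in these ratios was not tested. Ratios of different genes depend on their exon and intron lengths and are not compared.

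Levels were set across ages and organs in CPM, the mean normalized count of a gene per 1000000 sense-exon counts of its table. The tables were normalized separately and pool knockout and control libraries, so these values are a description with no test. Every gene of the 10 was at a higher level in P0 ovary than in P8 testis, by 1.40 to 2.66 times with a median of 1.95, where the median over 14035 genes was 0.912. Ptprc had the largest of these ratios, at 11.98 CPM in ovary and 4.50 CPM in P8 testis. Adgre1 stood at 29.9 and 11.8, Csf1r at 89.7 and 35.5, and Mrc1 at 142 and 70.4. Lyz2 had the smallest ratio, at 39.8 in ovary and 28.3 in P8 testis. Endothelial and erythroid markers were higher in ovary too, in 6 of 6 and 4 of 4 cases, with median ratios of 3.07 and 21.2. Leydig markers were higher there in 0 of 5 cases, with a median ratio of 0.217. Sertoli and granulosa markers were higher in 2 of 5 (median 0.333) and germ cell markers in 2 of 6 (median 0.296). The part of these cell types in the levels of the 10 genes was not tested.

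Between P8 and P12 testis, 9 of the 10 genes were at a higher level at P12. Cd52 differed from the others by its size, with 1.62 CPM at P8 and 10.3 at P12, a ratio of 6.32 that ranked 22nd of 14035 genes. The ratios of the other 9 ran from 0.949 for Cd68 to 1.71 for Lyz2, with a median of 1.28, and the median over all genes was 1.01. The C1q chains had ratios of 1.28 for C1qa, 1.20 for C1qb and 1.01 for C1qc. Adgre1 reached 18.1 CPM at P12, Csf1r 48.4, Mrc1 94.0 and Lyz2 48.3.

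**Figure D3:**
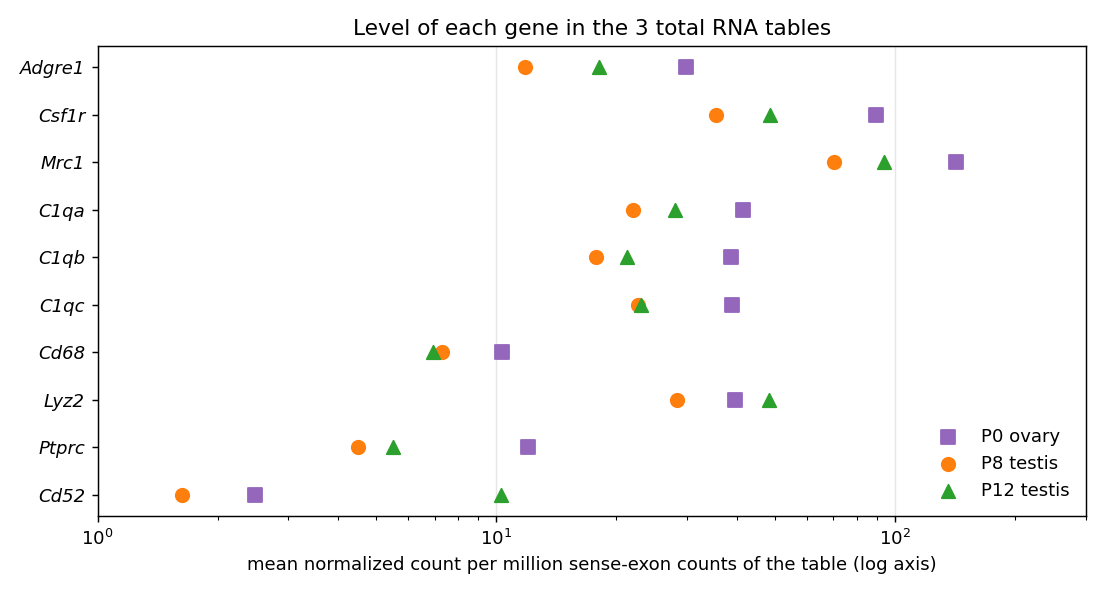
Level in CPM of sense exons, from mean normalized counts (x axis, log scale), for the 10 genes in P0 ovary (squares), P8 testis (circles) and P12 testis (triangles), in means over all libraries of a table. Ovary lies to the right of P8 testis for every gene, and Cd52 is set apart by its distance between P8 (1.62) and P12 (10.3).

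Other leukocyte genes were grouped by function and read in the same way, and 0 were called in any of these lists in any knockout comparison (DESeq2's adjusted p over all genes). Of all genes 0.881% were called at P12 and 0.548% in ovary. At P8 the shares were 0.0449% against wild type and 0.0577% against the heterozygote, so counts of 0 are near the background. At P12 17 of 24 further macrophage genes lay above 0, with a median of 0.06. The extremes there were Mpeg1, which encodes the pore-forming perforin-2, at -0.28 (adjusted p = 0.654), and Cx3cr1, which encodes the fractalkine receptor, at -0.25 (adjusted p = 0.827) by the authors' deposited table. Pan-leukocyte genes lay above 0 in 15 of 16 cases at P12, with a median of 0.07. Coro1a, for an actin-binding protein of leukocytes, was at 0.19, and Arhgdib, for a signalling regulator of blood cells, at 0.18, in the authors' deposited table. In ovary 0 of 15 pan-leukocyte genes lay above 0 and their median was -0.09. These genes were read from the same libraries, so a shared sign among them is not a set of independent observations.

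Antigen presentation genes, those of MHC class II and dendritic cells, lay above 0 in 8 of 12 cases at P12, with a median of 0.08. H2-Aa, a class II chain, was at 0.29, and Cd86, a co-stimulatory ligand for T cells, at 0.28 (adjusted p-values 0.725 and 0.748) in the authors' deposited table. Only 3 of 12 monocyte and neutrophil genes reached a mean count of 10 at P12. They had a median of 0.26, among them Ccr2, the chemokine receptor by which monocytes leave bone marrow, at 0.31 (adjusted p = 0.675), and Ltf, for lactoferrin, at 0.26 with none given, in the authors' deposited table. In ovary 9 of them reached that count, 8 lay below 0, and the median was -0.13, beside the Lyz2 fold of -0.52. The lowest adjusted p among these 9 was 0.440. Their part in the Lyz2 value was not tested.

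Complement genes other than C1q lay above 0 in 12 of 12 cases at P12, with a median of 0.09. Cd93, for a surface protein of endothelial and myeloid cells once described as a C1q receptor, was at 0.32 (adjusted p = 0.581), and C1s1, a protease that acts with C1q, at 0.24 (adjusted p = 0.698) by the authors' deposited table. This stood beside folds below 0 for the 3 C1q chains. In ovary 6 of 12 complement genes lay above 0 and their median was near 0. Genes of phagocytosis and the lysosome lay above 0 in 9 of 17 cases at P12 (median 0.05), with Lamp2, a lysosomal membrane protein, at 0.13 in the authors' deposited table. Growth factors and chemokines for macrophages lay above 0 in 2 of 7 cases, with a median of -0.06. Cxcl12, a chemokine of stromal cells, was at 0.18 and Tgfb1, a growth factor that shapes resident macrophages, at -0.16 in the authors' deposited table.

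Lymphocyte genes were near the limit of what the tables held. At P12 6 of 11 T and NK cell genes and 1 of 6 B cell genes in the table reached a mean count of 10, and the summed level of each list was at most 7.40 CPM in any of the 3 tables. Cd4 was at 0.12, Cd3g, for a chain of the T cell receptor complex, at 0.08 and Cd79b, for a signalling chain of the B cell receptor, at 0.05 at P12 in the authors' deposited table. Mast cell genes lay above 0 in 4 of 5 cases with a median of 0.16, and Tpsb2, for a mast cell tryptase, was at 0.23 and Cpa3, for a mast cell carboxypeptidase, at 0.20 in the authors' deposited table. Beside these, 4 of 4 erythroid markers lay above 0 at P12, with Hbb-bs and Hbb-bt, both adult beta-globin genes, at 0.09 and 0.08 in the authors' deposited table. No defining marker of a leukocyte list was at 0 in any table where it was listed.

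**Figure D4:**
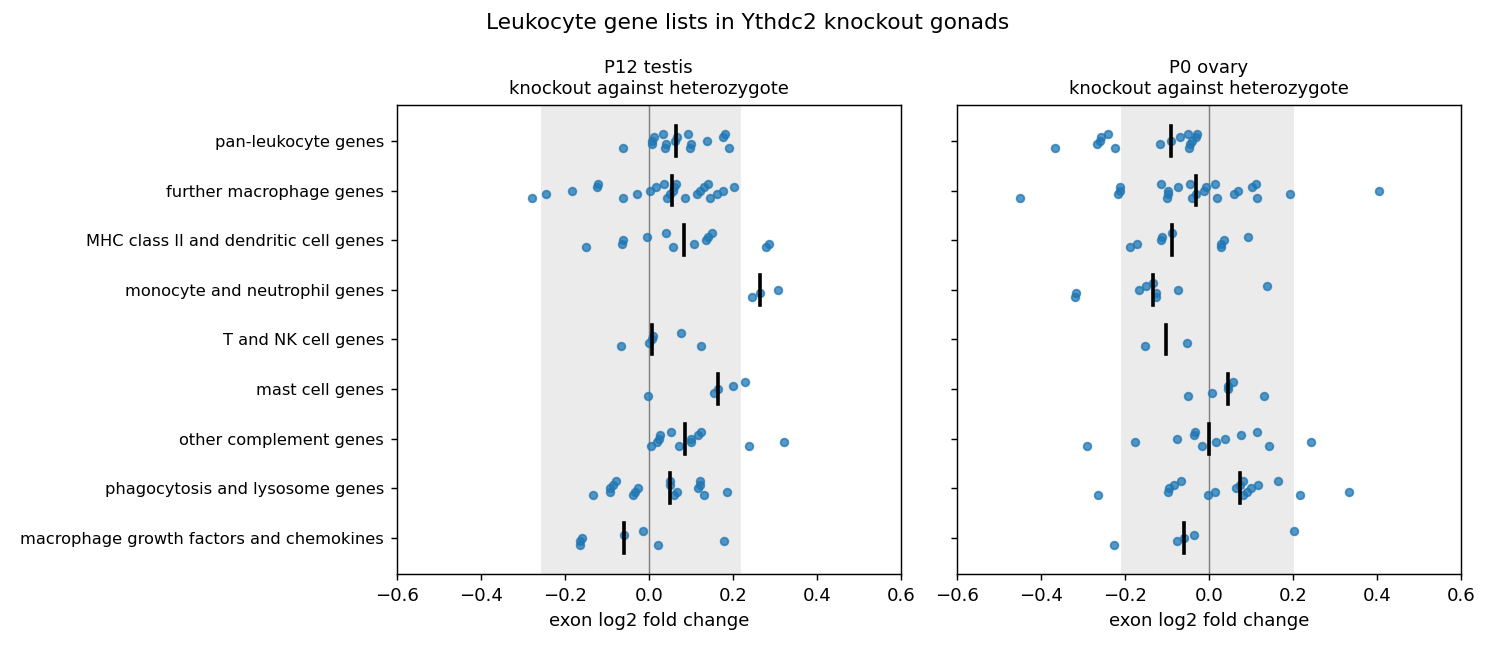
Log2 fold changes (x axis) of 9 lists of leukocyte and related genes at P12 testis and P0 ovary in the authors' deposited tables, with 1 point for each gene whose mean count was at least 10. Black bars are list medians, grey bands span the 5th to the 95th percentile of all genes, and the pan-leukocyte points lie mostly above 0 at P12 and all below 0 in ovary.

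In ovary 6 of 6 germ cell markers lay below 0 with 3 called lower, namely Tdrd1 at -1.83 (adjusted p = 3.08e-25), Nobox at -1.79 (adjusted p = 1.72e-22) and Mael at -1.21 (adjusted p = 3.31e-10) by the authors' deposited table. Tdrd1 and Mael act in the piRNA pathway and Nobox is a transcription factor of oocytes. Erythroid markers lay below 0 in 5 of 5 cases with a median of -0.13 and no call, beside the pan-leukocyte median of -0.09. Sertoli and granulosa markers had a median of 0.16 in ovary and -0.08 at P12, where Amh was at -0.34 and Sox9 at -0.32 without passing in the authors' deposited table. The remaining named markers at P12 were Star at 0.25, Pecam1 at 0.34 and Tek at 0.23, none of which passed in the authors' deposited table.

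The m6A immunoprecipitation asked which fragments of polyadenylated testis RNA an anti-m6A antibody enriched over input. With 1 library of each kind no replicate bears on these folds, and a gene was counted as enriched or depleted at an absolute log2 fold of at least 1. Among the 10 genes 2 were enriched, where 22.6% of 16399 genes were, and 2 were depleted, where 19.5% were. C1qa stood at 1.18 and C1qb at 1.03 over input in the authors' deposited table, and Cd52 at 0.97 lay just inside the limit. C1qc, the third C1q chain, stood at 0.13 there. Adgre1 at -1.91 and Ptprc at -1.83 were the depleted ones in the authors' deposited table, with only 1.89% and 2.49% of genes lower than each.

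By the adjusted p in the authors' deposited table, whose spread cannot come from replicates at P8, 5 of the 10 lay below 0.05, beside 53.2% of 15807 genes. They were Adgre1 (adjusted p = 0.00115), Ptprc (0.0434), C1qa (0.0389), C1qb (0.0325) and Mrc1 (0.00595), as DESeq2 gave them in the authors' deposited table.

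The other members lay between the fold limits in the authors' deposited table, with Lyz2 at -0.79, Mrc1 at -0.74, Csf1r at -0.56 and Cd68 at -0.26. The median of the 10 was -0.41 and that of all genes -0.01. Mean counts over all libraries of the m6A table, P12 and P20 included, were low for some members, 28.6 for Ptprc, 34.3 for Cd68 and 51.5 for Cd52, against 839 for Mrc1. Only 3 members reached a mean count of 10 in introns, Mrc1 at 0.39, Csf1r at 0.21 and Ptprc at -0.03 in the authors' deposited table. 

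Other genes of the lists were counted by the same fold limit, in values from the authors' deposited table. Past that limit were 51 of them, of which 37 had an adjusted p below 0.05 there, 10 did not and 4 had none. Over all 16399 genes, 22.6% were enriched and 19.5% depleted at the same limit, the shares beside which the 51 and each count below stand. The 51 was not set against a total of list genes, so it is not read as more or fewer than these shares. Of 23 further macrophage genes 5 were enriched, Fcgr1 at 1.87, Mpeg1 at 1.86, Cd14 at 1.63, Cx3cr1 at 1.45 and Spi1, the gene of PU.1, at 1.42 in the authors' deposited table. In that list 4 were depleted, Itgam at -1.30, Cybb at -1.18, Ctss at -1.04 and Pf4 at -1.01 in the authors' deposited table. None of these 4 had an adjusted p below 0.05 there (0.218, 0.168, 0.0800 and 0.158 in that order by DESeq2), nor did Fcgr1 (0.0505), Spi1 (0.114) or Ptpn6 (0.121) in the authors' deposited table. Pan-leukocyte genes were enriched in 0 of 15 cases and depleted in 3, Coro1a at -1.38, Cd37 at -1.36 and Ptpn6 at -1.20 in the authors' deposited table. Ligands and chemokines for macrophages were enriched in 3 of 6 cases, among them Csf1, the ligand of the Csf1r product, at 1.34, Cx3cl1, the ligand of the Cx3cr1 product, at 1.69, and Ccl2 at 1.39 in the authors' deposited table. Cd83 at 2.31 and Zbtb46 at 1.39 were the enriched ones of 10 MHC class II and dendritic cell genes, and Plac8 at -1.87 and Cpa3 at -1.01 were depleted among monocyte and mast cell genes, in the authors' deposited table. No mast cell gene at a mean count of 10 or more, Cpa3 included, had an adjusted p below 0.05 there (lowest 0.0508 by DESeq2).

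Complement genes other than C1q lay on both sides in this comparison. Of 12 such genes 3 were enriched and 5 depleted, where 22.6% and 19.5% of all genes were. The enriched ones were C5ar1 at 1.52 (no adjusted p), Cd93 at 1.24 and C3ar1 at 1.16 in the authors' deposited table. Among the depleted ones were C4b at -1.44 and C3 at -1.16 in the authors' deposited table. So were Cfb at -1.12 (adjusted p = 0.255 by DESeq2) and C2 at -1.004, in the authors' deposited table. Of 18 genes of phagocytosis and the lysosome, Ctsz and Ctsb, both cathepsins, at 1.19 each and Mertk, a receptor for dying cells, at 1.01 were enriched in the authors' deposited table. Among 7 depleted ones were Lamp2 at -1.72, Stab1 at -1.70, Lamp1 at -1.38, Ctsl at -1.30, Cd36 at -1.17 and Axl at -1.05 in the authors' deposited table. Among markers of other cells, Cldn5 at 2.27 and Sox9 at 1.55 were enriched in the authors' deposited table. Depleted were 5 of 6 germ cell markers, from -2.21 for Dazl through Ddx4 at -2.07, Mael at -1.86 and Tdrd1 at -1.46 to -1.10 for Sycp3, in the authors' deposited table. So were 4 of 4 erythroid markers, Hbb-bs at -1.72, Alas2 at -1.65, Hba-a2 at -1.15 and Hbb-bt at -1.14, with Cyp17a1 at -1.59, Insl3 at -1.25 and Emcn at -1.26, in the authors' deposited table.

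**Figure D5:**
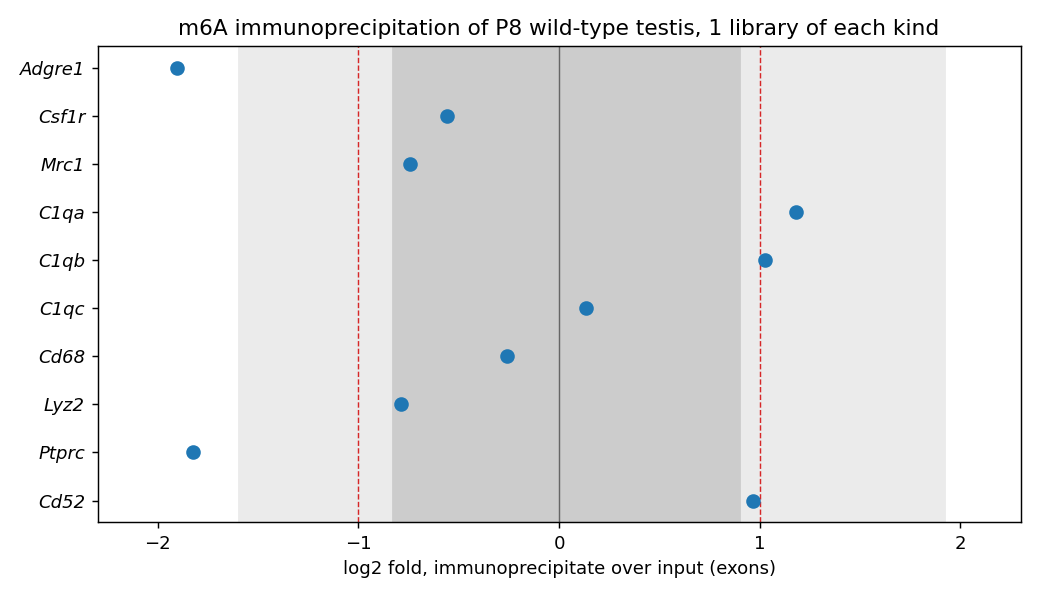
Log2 fold of the m6A immunoprecipitate over input (x axis) for exons of the 10 genes in P8 wild-type testis, 1 library of each kind, in the authors' deposited table. Grey bands span the middle 50% and 90% of all genes, dashed lines mark folds of 1 and -1, and C1qa and C1qb lie beyond the upper line while Adgre1 and Ptprc lie beyond the lower one.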

How the data were processed

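Total RNA was sequenced with a stranded kit after removal of ribosomal RNA, and m6A libraries were made from fragmented polyadenylated RNA, per the labels' protocols. The authors deposited comparison tables. Per the file headers, each row gives a mean normalized count, which is a signal averaged across the libraries of a table, log2 fold changes and an adjusted p-value per feature. DESeq2 and the mm10 genome come from the submitters' processing notes, and the aligner, the annotation and all versions were not given in the sources used here. In 2 total RNA tables, P8 and P12, column names mention IP and input, and these were read as knockout over control. Folds shrink toward 0 where counts are few, so a fold may understate the change of a low gene, and sizes are not strictly comparable between tables.

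The rows of the 10 genes were read by name for sense exons and introns. Adjusted p-values below 0.05 over the whole table counted as called, and summaries used features whose mean was 10 or more. All 10 genes passed that floor in exons. The m6A table was read at P8 only. Members and lists were chosen with earlier results of these data known. All genes and, from each list, any called gene (in m6A, past a log2 fold of 1) and the 2 of largest fold at P12 were named, except a few not reported here, besides a few named after their values were seen: Prm2, Tnp1, Crybg2, Ubxn11 and Lyz1. Per-library columns used numbered 0, and 8 of the Bind-N-Seq file were not used. The reading and counting steps were tested on simulated data, with Python 3.11.15, pandas 2.3.3 and numpy 2.4.6. Alternatives were other thresholds, floors, introns, centring and the P8 heterozygous control.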

Additional observations from a re-analysis of the deposited data

How the results depend on the processing

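No paired analysis was possible because the tables hold no values per library, and for that reason leaving out each replicate, other normalizations and another count model could not be fitted. The call of Cd52 at P12 was lost at an adjusted p below 0.01, where 0 genes of the 10 were called. In introns 6 of the 10 reached a mean count of 10 at P12, and 0 were called. Cd52 was not among these 6 (mean intron count 3.79, no adjusted p), so introns could not retest its call. In the m6A comparison 8 genes passed at a log2 fold of 0.5. The middle 50% of all genes ran from -0.83 to 0.90, so most genes passed that limit too. At the authors' adjusted p below 0.05 5 passed, with Mrc1 added, beside 53.2% of all genes. In introns only 3 members reached a mean count of 10, and 0 passed. The m6A median was -0.21 at a mean count of at least 50 and 0.21 in introns. Single genes changed sign in introns: Mrc1 at P12 (-0.0724), C1qb in ovary (-0.0467), Adgre1 (-0.0537), Mrc1 (0.0666), C1qb (-0.0842) and Cd68 (0.00508) at P8, and Csf1r (0.209) and Mrc1 (0.387) in m6A. Against the heterozygous control at P8, Mrc1 (0.0375), Cd68 (0.0130) and Cd52 (-0.00300) changed sign. Centring the folds on the median of all genes changed no sign and no call of the 10. For list medians, 14 of 170 values moved by 0.1 or more on the log2 scale under other floors and none by centring, alternatives added after the data were seen. The causes were not tested. Low mean counts limit Cd52 at P8 and in ovary, and most introns.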

Other observations

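Leukocyte genes outside the 10 differed in level between ages and organs in several ways, given here as mean normalized counts in tables that were normalized separately, with names chosen after their values were seen and with no test. Mast cell genes were far higher in newborn ovary than in P8 testis, with a median ratio of 36.8 over 5 genes on the CPM scale (counts per 1000000 sense-exon counts of a table). Cpa3 had a mean count of 873 in ovary, 35.4 at P8 and 28.8 at P12. Cma1, which encodes mast cell chymase, had 891, 57.2 and 48.7 in the same order, and Tpsb2 had 806, 32.8 and 32.3. Hdc, which encodes the enzyme that makes histamine, had a ratio of only 2.85.

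Several neutrophil genes were lowest at P12, but the list did not move as one. Ltf had mean counts of 24.0 at P8 and 19.8 at P12, and Csf3r 10.1 and 9.51. Ccr2 and Plac8, of the same monocyte and neutrophil list, were higher at P12 (57.4 and 187) than at P8 (31.0 and 122). S100a8 and S100a9, whose products form calprotectin, had mean counts of 128 and 152 in ovary, 58.8 and 71.0 at P8, and 6.07 and 4.55 at P12. Ngp and Retnlg, 2 more genes of neutrophils and their precursors, had 28.5 and 32.2 in ovary, 9.65 and 6.50 at P8, and 1.09 and 0.323 at P12. Some genes of mature macrophages went the other way between P8 and P12 testis. Cd163, the haptoglobin-haemoglobin scavenger receptor, had a CPM ratio of 4.77, from a mean count of only 11.6 at P8. It was the largest ratio among 23 further macrophage genes, whose median was 1.38, with 18 of them higher at P12. Cd36, a lipid scavenger receptor also found on endothelium and other cells, had a ratio of 7.44. Among complement genes C3 had a ratio of 4.09. The 4 erythroid markers at or above a mean count of 10 were higher at P12 too, with a median ratio of 2.64, and their part in these values was not tested.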
